A study of Mus musculus with 12 samples.

Results

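The genes Wfdc18, Wfdc2, Slpi, Lcn2, Ltf, Fcgbp, Saa1, Saa2 and Saa3 encode secreted proteins that defend epithelial surfaces, and they are 9 of the 47593 genes measured by RNA sequencing in 12 mammary tumors of mice. They were chosen by symbol, with their levels in these tumors known, so their levels are described without a test. The only tests are of their slopes on marker lists that hold none of the members, and these p-values too belong to genes chosen with their levels known. All tumors belonged to 1 condition, and no normal mammary gland was among the samples used here, so whether a level is raised or lowered in tumors cannot be read from them. The mice were female, untreated and of mixed background, and carried the MADM (mosaic analysis with double markers) RG;GR alleles. In this design the Brca1 flox and p53 KO alleles are linked to the MADM-TG cassette, and MMTV-Cre, a transgene active in mammary epithelium, generates rare GFP-labelled cells that lack both genes among heterozygous neighbours. RNA came from a homogenised piece of each tumor with no sorting of cells, so it also holds that of heterozygous and other host cells. The labels used here give no age for the mice. The 12 tumors came from 9 mice: tumors 3 and 4 were from 1 mouse, tumors 10, 11 and 12 from another, and the other 7 mice gave 1 tumor each. Levels are in TPM, a relative transcript abundance that divides the reads of a gene by its length and scales each tumor to the same total, so that levels can be compared between genes. Means and SDs are over 9 mice on the log2(TPM + 1) scale, with the tumors of 1 mouse averaged.

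As background, mucosal and glandular epithelia release proteins that blunt proteases, withhold iron from microbes, stabilise mucus and carry lipids in inflammation. The WFDC proteins (Wfdc18, Wfdc2, Slpi) are small, cysteine-rich proteins named after the whey acidic protein of milk, and Slpi inhibits the neutrophil proteases elastase and cathepsin G. Lipocalin 2 (Lcn2) captures bacterial siderophores and lactotransferrin (Ltf) binds iron directly. Both are made by epithelium and are also stored in neutrophil granules, and Ltf is a major protein of milk. Fcgbp is a large mucus protein of goblet cells and other secretory epithelia. The serum amyloid A proteins are acute phase apolipoproteins: Saa1 and Saa2 come mainly from the liver, whereas Saa3 is made locally by macrophages and other cells. Genes of this kind are widely known as targets of the NF-kB, C/EBP and STAT3 transcription factors.

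The bases upstream of 5 of these genes are printed because their levels followed different courses across the tumors: Wfdc18 and Lcn2 were low in tumors 2 and 8, Slpi and Saa3 were high in tumor 8, and Fcgbp was highest in tumor 9. Each run is the 250 bases before the start site in RefSeq (GRCm38.p6), in the 5′ to 3′ direction of the gene. Capitals mark the letters TTNNGNAA of a C/EBP-type site on either strand. Upstream here means before the RefSeq start, whereas the gene spans given below are from GENCODE. By those spans the windows of Slpi and Lcn2 lie inside the gene, and that of Saa3 overlaps its first bases.
Wfdc18, chr11:83708754-83709003, plus strand: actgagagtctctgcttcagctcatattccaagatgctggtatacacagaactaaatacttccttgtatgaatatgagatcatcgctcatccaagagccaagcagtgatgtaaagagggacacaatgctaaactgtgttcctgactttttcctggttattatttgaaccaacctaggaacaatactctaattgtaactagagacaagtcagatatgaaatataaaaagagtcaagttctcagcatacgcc
Lcn2, chr2:32387740-32387989, minus strand: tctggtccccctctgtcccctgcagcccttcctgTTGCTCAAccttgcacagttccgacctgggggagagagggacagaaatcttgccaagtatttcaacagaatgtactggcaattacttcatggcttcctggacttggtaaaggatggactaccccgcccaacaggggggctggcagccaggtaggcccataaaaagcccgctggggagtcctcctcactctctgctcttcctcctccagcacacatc
Slpi, chr2:164356508-164356757, minus strand: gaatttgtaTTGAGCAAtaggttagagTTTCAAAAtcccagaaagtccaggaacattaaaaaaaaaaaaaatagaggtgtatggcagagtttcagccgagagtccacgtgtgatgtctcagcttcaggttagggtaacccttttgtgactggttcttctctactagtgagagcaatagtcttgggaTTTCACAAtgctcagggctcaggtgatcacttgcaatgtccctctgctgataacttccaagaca
Saa3, chr7:46715677-46715926, minus strand: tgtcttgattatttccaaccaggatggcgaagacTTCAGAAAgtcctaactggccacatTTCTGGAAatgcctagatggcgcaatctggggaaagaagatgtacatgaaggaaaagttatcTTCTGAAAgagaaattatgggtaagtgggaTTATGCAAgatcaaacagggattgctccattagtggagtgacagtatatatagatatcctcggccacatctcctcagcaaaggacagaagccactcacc
Fcgbp, chr7:28070986-28071235, plus strand: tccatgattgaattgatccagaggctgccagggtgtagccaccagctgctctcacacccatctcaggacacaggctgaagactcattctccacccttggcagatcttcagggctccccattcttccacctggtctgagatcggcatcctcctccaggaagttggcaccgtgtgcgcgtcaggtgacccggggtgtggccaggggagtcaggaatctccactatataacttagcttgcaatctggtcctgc
All 9 genes matched a RefSeq start. The TTNNGNAA letters occurred 4 times upstream of Saa3, 3 times upstream of Slpi, 2 times each upstream of Saa1 and Ltf, 1 time each upstream of Lcn2, Wfdc2 and Saa2, and not in the windows of Wfdc18 and Fcgbp. Of all 27025 windows of the same length, 36.9% held at least 1 such match. The share with 2 or more was not computed, so the higher counts have no background here. An NF-kB-type site, read as GG, 3 bases of any kind and TTTCC and found in 4.57% of all windows on either strand, occurred only upstream of Saa1 among the 9 genes, where it overlaps a C/EBP match. The ETS letters GAGGAAG, found in 10.4% of all windows, occurred only upstream of Lcn2, on the opposite strand. A match describes letters in this window and does not show binding.

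Before the levels of the members, 3 tumors are described, because their marker genes set them apart. Tumor 2 went against its label as a mammary tumor. All 9 epithelial markers had their lowest value there, with a median of 0.128 TPM, and Epcam, Krt19 and Esrp1 were listed at 0. The B lymphocyte genes Cd79b and Cd79a, which encode the signalling chains of the B cell receptor, were at 675 and 609 TPM there. Tumor 8 had the next lowest value of all 9 epithelial markers, with a median of 3.00 TPM, although Krt8 was still at 128 TPM. Tumor 8 also held the highest value of 7 of 8 macrophage genes, whose median there was 220 TPM against 30.5 to 142 TPM in the other tumors. In the other 10 tumors the epithelial median lay between 239 and 436 TPM and was highest in tumor 9, which also had Cd79b at 40.3 TPM, against at most 3.69 TPM in the tumors other than 2 and 9. The 37 mitochondrial genes took 3.66% to 7.40% of the TPM, and 21415 to 23443 genes per tumor were above 0. TPM keeps no read number, so the depth behind each value is unknown.

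**Figure D1:**
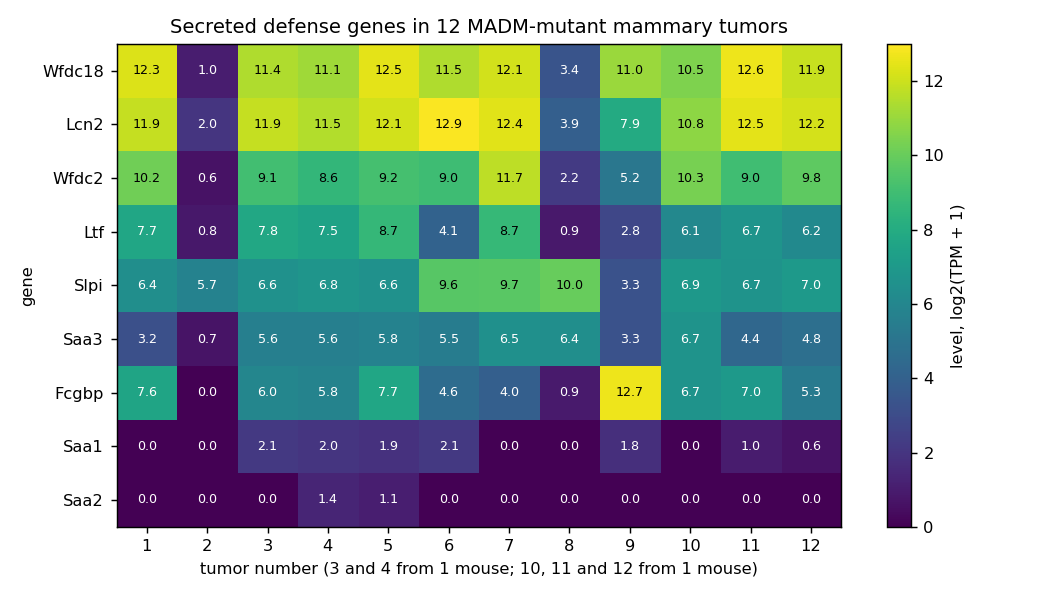
Level of the 9 genes (rows) in each of the 12 tumors (columns), as color and number on the log2(TPM + 1) scale. Wfdc18, Lcn2, Wfdc2 and Ltf were near the bottom of the scale in tumors 2 and 8, Slpi was highest in tumor 8, and Fcgbp reached 12.65 in tumor 9.

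Together the 9 genes took a considerable share of the transcripts of most tumors. Their summed level was 0.487% of the TPM in tumor 10 and 1.45% in tumor 7, the ends of the range over 10 tumors. It was 0.112% in tumor 8 and 0.00584% in tumor 2. Lcn2 was the 3rd most abundant of all genes in tumor 6, Wfdc18 the 5th in tumor 11 and Fcgbp the 7th in tumor 9. In tumors 2 and 8 the highest member was Slpi, at rank 3237 and 112.

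Among the WFDC genes, Wfdc18 (ENSMUSG00000000983, chromosome 11 from 83709015 to 83711348, plus strand), also known as extracellular proteinase inhibitor, was the most abundant. Its level was 5161 TPM in tumor 1, 2761 in tumor 3, 2257 in tumor 4, 5608 in tumor 5, 2798 in tumor 6, 4411 in tumor 7, 2091 in tumor 9, 1432 in tumor 10, 6404 in tumor 11 and 3795 in tumor 12. It was 1.05 TPM in tumor 2 and 9.37 TPM in tumor 8. The median of the 10 high tumors was 352-fold the level of tumor 8, and these 10 tumors differed among themselves by 4.47-fold. Tumor 9, which had low levels of several other members, was within this range for Wfdc18. The epithelial genes were lowest in the same tumors, 2 and 8. Whether fewer epithelial cells or less RNA per cell gave these low levels cannot be told apart in bulk tumor RNA.

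Wfdc2 (ENSMUSG00000017723, chromosome 2 from 164562413 to 164568510, plus strand), whose human counterpart HE4 is a serum marker of ovarian cancer, was also low in tumors 2 and 8. The level was 3323 TPM in tumor 7, 1287 in tumor 10, 1148 in tumor 1, 872 in tumor 12, 572 in tumor 5, 532 in tumor 3, 513 in tumor 11, 501 in tumor 6 and 394 in tumor 4. It was 35.1 TPM in tumor 9, 3.60 in tumor 8 and 0.553 in tumor 2. The median of the 9 high tumors was 16.3-fold the level of tumor 9. Wfdc18 exceeded Wfdc2 in all 12 tumors, by 1.11-fold in tumor 10 and by 59.5-fold in tumor 9.

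Slpi (ENSMUSG00000017002, chromosome 2 from 164354070 to 164389095, minus strand) followed a different order. Its highest level, 1004 TPM, was in tumor 8, where the other WFDC members were nearly absent, followed by 816 TPM in tumor 7 and 794 TPM in tumor 6. It was 130 TPM in tumor 12, 120 in tumor 10, 108 in tumor 4, 101 in tumor 11, 95.9 in tumor 3, 95.8 in tumor 5 and 84.8 in tumor 1. It remained at 52.4 TPM in tumor 2 and was lowest in tumor 9, at 8.71 TPM. These 3 highest values stood apart from the next, and the level in tumor 8 was 9.59-fold the median of the 10 tumors other than 2 and 8. The median of the 9 tumors other than 2, 8 and 9 was 12.4-fold the level of tumor 9. The ratio of Slpi to Wfdc2 was 279 in tumor 8 and 94.8 in tumor 2, against 0.0739 to 1.58 in the other tumors. Macrophage genes were highest in tumor 8 as well, with a summed level of 3293 TPM over 8 genes against 372 to 2898 TPM in the other tumors. Their sum was 2511 TPM in tumor 7 and 1316 TPM in tumor 6, the next highest in Slpi. In tumor 9, the lowest in Slpi, it was 2305 TPM. The part of macrophages in the Slpi level was not tested.

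The main iron-withholding gene was Lcn2 (ENSMUSG00000026822, chromosome 2 from 32384633 to 32388252, minus strand). Its level was 7824 TPM in tumor 6, 5760 in tumor 11, 5466 in tumor 7, 4598 in tumor 12, 4467 in tumor 5, 3770 in tumor 1, 3693 in tumor 3, 2895 in tumor 4 and 1762 in tumor 10. It was 243 TPM in tumor 9, 14.4 in tumor 8 and 2.97 in tumor 2. The other 9 tumors are called high here, a split made from these same values. The median of the 10 tumors other than 2 and 8 was 287-fold the level of tumor 8, and the median of the 9 high tumors was 18.4-fold the level of tumor 9. The ratio of Lcn2 to Wfdc18 lay between 0.730 and 2.83 in 11 tumors and was 0.116 in tumor 9. Of 11 neutrophil genes, 5 were listed at 0 in tumor 9 and S100a8 and S100a9 were lowest there, at 1.34 and 2.31 TPM, but Csf3r, at 17.5 TPM, and Mmp9, at 9.80 TPM, were above their levels in tumors 1, 2, 5 and 11.

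Ltf (ENSMUSG00000032496, chromosome 9 from 111019271 to 111042767, plus strand), the other iron-binding gene, was less abundant. The level was 411 TPM in tumor 7, 402 in tumor 5, 220 in tumor 3, 207 in tumor 1, 182 in tumor 4, 104 in tumor 11, 72.0 in tumor 12 and 66.7 in tumor 10. It was 15.8 TPM in tumor 6, 5.87 in tumor 9, 0.854 in tumor 8 and 0.792 in tumor 2. Lcn2 and Ltf thus went apart in tumor 6, which had the highest Lcn2 of all tumors and the lowest Ltf outside tumors 2, 8 and 9. The ratio of Lcn2 to Ltf was 496 in tumor 6 and between 3.75 and 63.8 in the other 11. Csn3, the kappa casein gene of milk, was at 1703 TPM in tumor 6, above its median of 710 TPM over the 12 tumors. The milk genes did not move together. In tumor 9, also low in Ltf, Csn3 was at 26.5 TPM, but the casein gene Csn2 was at 3323 TPM, against at most 127 TPM elsewhere.

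**Figure D2:**
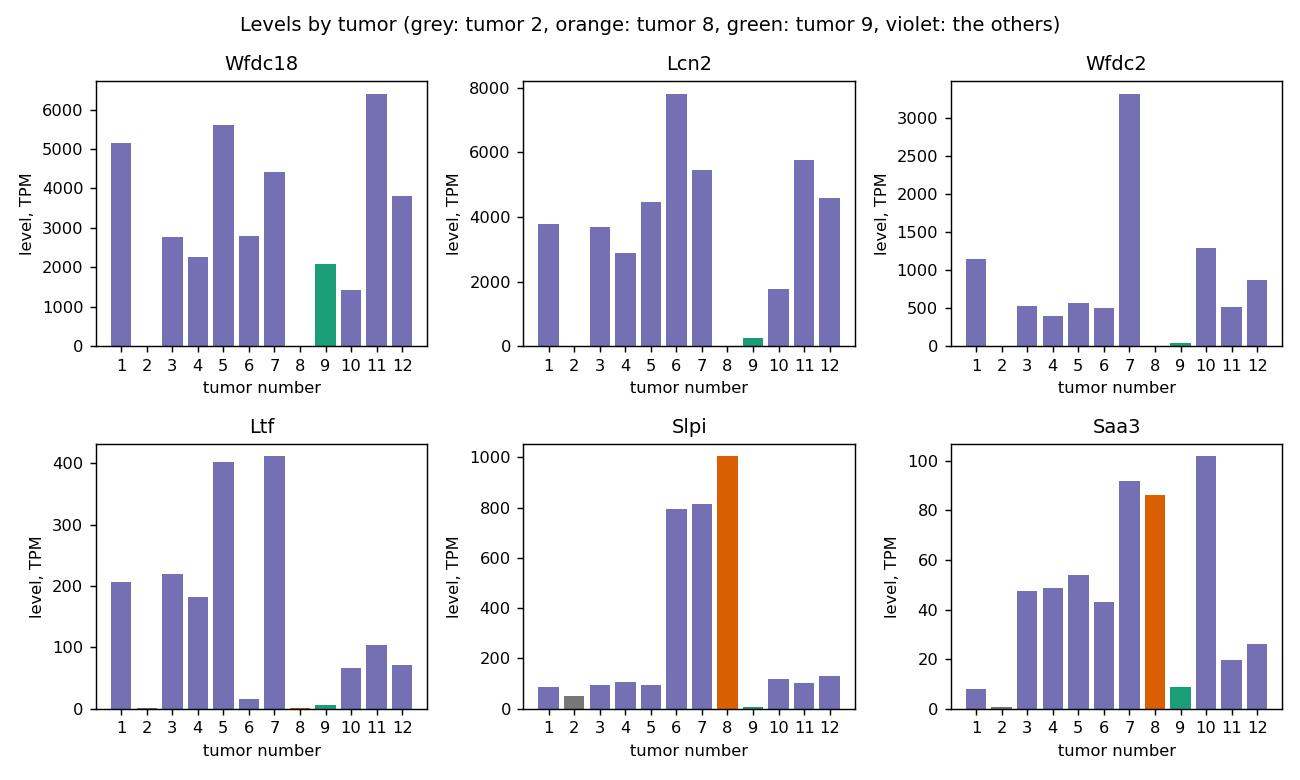
Level in TPM (bars from 0, a separate axis for each gene) of 6 genes in each of the 12 tumors, with tumors 2, 8 and 9 in their own colors. Wfdc18, Lcn2, Wfdc2 and Ltf had almost no bar in tumors 2 and 8, Slpi stood at 794 to 1004 TPM in tumors 6, 7 and 8, and Lcn2 and Wfdc2 were also low in tumor 9.

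The mucus gene Fcgbp (ENSMUSG00000047730, chromosome 7 from 28071236 to 28120862, plus strand) was dominated by tumor 9, at 6441 TPM. It was 205 TPM in tumor 5, 190 in tumor 1, 125 in tumor 11, 99.8 in tumor 10, 62.1 in tumor 3, 54.8 in tumor 4, 38.7 in tumor 12, 22.9 in tumor 6 and 14.6 in tumor 7. It was 0.927 TPM in tumor 8 and was listed at 0 in tumor 2. Tumor 9 was 104-fold above the median of the 9 tumors other than 2, 8 and 9. Muc2, the goblet cell mucin, and Tff3, its companion trefoil peptide, were both listed at 0 in all 12 tumors. In the annotation used here, 4.02% of the 75-base windows of the Fcgbp transcript also occurred in another gene, 9530053A07Rik, so a small part of its reads could have been assigned to either.

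Of the acute phase genes, Saa3 (ENSMUSG00000040026, chromosome 7 from 46711998 to 46715700, minus strand) was present in every tumor. It was highest in tumor 10 with 102 TPM, in tumor 7 with 91.9 TPM and in tumor 8 with 86.3 TPM. It was 54.1 TPM in tumor 5, 48.5 in tumor 4, 47.4 in tumor 3, 43.2 in tumor 6, 26.1 in tumor 12, 19.6 in tumor 11, 8.76 in tumor 9, 7.93 in tumor 1 and 0.600 in tumor 2. Like Slpi, Saa3 was among its 3 highest values in tumor 8, where epithelial markers were low. Saa1 (ENSMUSG00000074115, chromosome 7 from 46740497 to 46742980, minus strand) did not exceed 3.40 TPM, the level of tumors 3 and 6, and was listed at 0 in 5 tumors. Saa2 (ENSMUSG00000057465, chromosome 7 from 46751790 to 46754313, plus strand) was listed at 1.58 TPM in tumor 4, 1.10 TPM in tumor 5 and 0 in the other 10. The Saa1 and Saa2 transcripts were 94.4% identical, so the division of reads between them is uncertain. Of their 75-base windows, 4.67% for Saa1 and 4.70% for Saa2 were shared between both. Saa3 shared no such window with another gene, and its transcript was 73.2% identical to that of Saa1. Saa4, a further gene of the cluster, was listed at 0 in all tumors.

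Ordered by their means on the log2(TPM + 1) scale, the genes ran from Wfdc18, with 9.64 ± 4.28 (SD, n = 9 mice), and Lcn2, with 9.63 ± 4.07, to Wfdc2 with 7.39 ± 3.82, Slpi with 7.21 ± 2.20, Fcgbp with 5.51 ± 3.80, Ltf with 5.29 ± 3.21, Saa3 with 4.69 ± 1.93, Saa1 with 0.93 ± 1.00 and Saa2 with 0.19 ± 0.40. Only 2 steps in this order held in every mouse: Lcn2 was above Wfdc2 in 9 of 9 mice, by 2.24 ± 0.98, and Saa3 was above Saa1 in 9 of 9 mice, by 3.76 ± 1.97. The step from Wfdc18 to Lcn2 was 0.0039 ± 1.30, with Wfdc18 higher in 3 of 9 mice. The steps between Wfdc2, Slpi, Fcgbp, Ltf and Saa3 were smaller than their SDs. Without tumors 2 and 8 the means over 7 mice were 11.76 for Wfdc18, 11.54 for Lcn2, 9.10 for Wfdc2, 7.02 for Slpi, 6.95 for Fcgbp, 6.55 for Ltf, 5.02 for Saa3, 1.20 for Saa1 and 0.25 for Saa2. The close steps were not stable: without tumor 9 Lcn2 (9.85) was above Wfdc18 (9.46), Slpi (7.70) above Wfdc2 (7.67) and Ltf (5.60) above Fcgbp (4.62), and with a pseudocount of 0.1 Lcn2 (9.58) was above Wfdc18 (9.53) and Ltf (5.04) above Fcgbp (5.02).

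Tumors of 1 mouse gave the nearest thing to replicates. In tumors 3 and 4 the 7 abundant members differed by 1.02-fold for Saa3 to 1.35-fold for Wfdc2. Among tumors 10, 11 and 12 the spread of these 7 genes was larger. The fold between the highest and the lowest was 5.20 for Saa3, 4.47 for Wfdc18, 3.27 for Lcn2, 3.23 for Fcgbp, 2.51 for Wfdc2, 1.56 for Ltf and 1.29 for Slpi. For Wfdc18, tumors 10 and 11 of this mouse were the lowest and the highest of all tumors other than 2 and 8. These genes did not move together in that mouse: Saa3 and Wfdc2 were highest in tumor 10, where Wfdc18 and Lcn2 were lowest. On the log2 scale the widest spread within a mouse, 2.32 for Saa3, compared with 3.38 between the mice other than that of tumor 2.

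**Figure D3:**
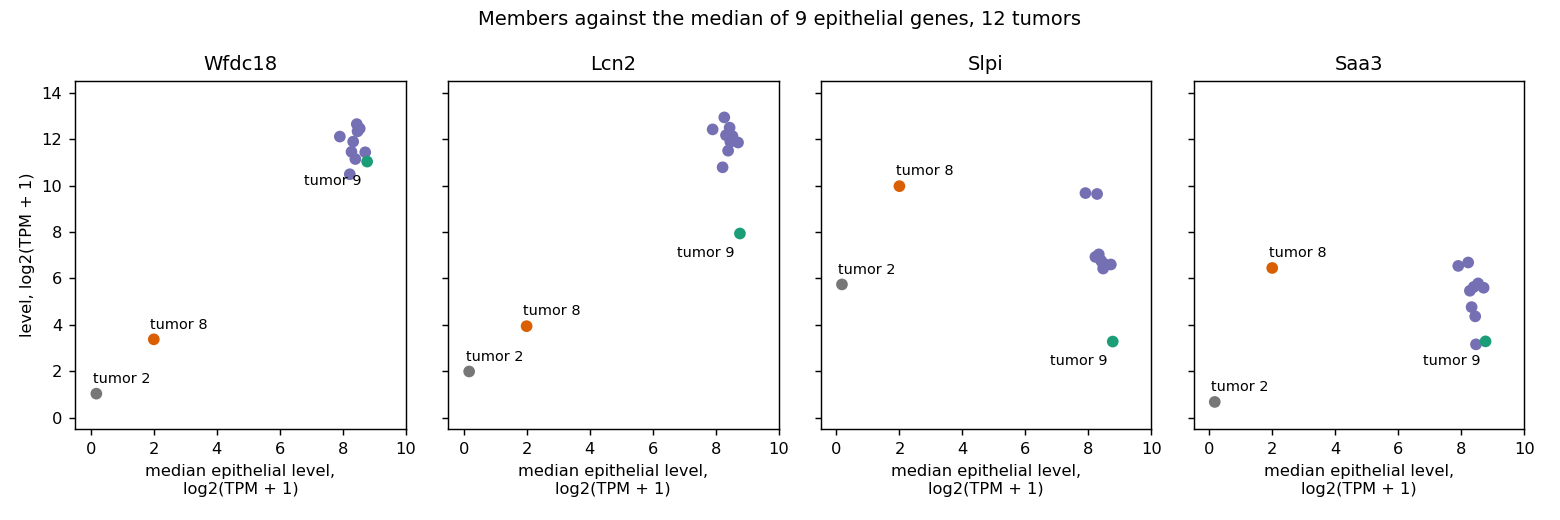
Level of Wfdc18, Lcn2, Slpi and Saa3 (vertical axes) against the median of 9 epithelial genes (horizontal axes), both as log2(TPM + 1), with 1 point per tumor. Wfdc18 and Lcn2 lay low in tumors 2 and 8, where the epithelial genes were low, whereas Slpi, at 9.97, and Saa3, at 6.45, were high in tumor 8.

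The members were compared with each other over 8 mice, without tumor 2. These correlations describe the same libraries and rest on few points, and no p is given for the 21 pairs. Wfdc2 and Lcn2 had Pearson r = 0.95 (Spearman rho = 0.69). Their r was 0.85 without tumor 8 but 0.10 without tumors 8 and 9, so the relation rested on those tumors together. Wfdc18 and Wfdc2 had r = 0.86 (rho = 0.83) and r = 0.83 without tumors 5 and 8. Slpi and Lcn2 had r = -0.01 over 8 mice but 0.88 over 7 mice, without tumor 8. Wfdc18 and Lcn2 had r = 0.90 (rho = 0.69) and r = 0.58 without tumors 5 and 8. Slpi and Fcgbp went in opposite directions, with r = -0.95 (rho = -0.95) and r = -0.91 over 6 mice, without tumors 8 and 9. Tumor 2, in which Fcgbp was listed at 0 and Slpi was 52.4 TPM, lay off this line.

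**Figure D4:**
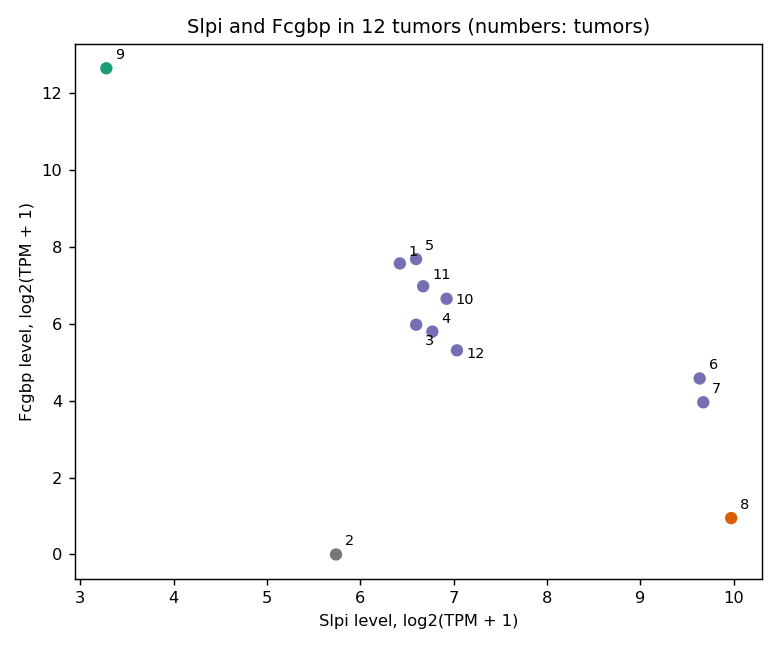
Level of Fcgbp (vertical axis) against that of Slpi (horizontal axis) in each of the 12 tumors, both as log2(TPM + 1), with tumor numbers beside the points. Tumor 9 lay at the upper left, tumors 6, 7 and 8 at the lower right, and the other tumors between them without a strict order, with tumor 2 apart at the bottom.

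The genes most alike each member were taken over the same 8 mice among 10779 genes with a mean of at least 10 TPM. For Wfdc18 they were Chmp4c (r = 0.996), Grhl2 (r = 0.992), an epithelial transcription factor, and Grb7 (r = 0.990), and without tumors 8 and 9 these values were 0.83, 0.51 and 0.13. For Lcn2 they were Esrp2, an epithelial splicing regulator (r = 0.991), Mtpap and Lad1 (r = 0.988 for both), and for Wfdc2 the keratin Krt79 (r = 0.991), Zfp706 (r = 0.980) and Lad1 (r = 0.977). Without tumors 8 and 9, a choice made after seeing the data, r was 0.27 for Esrp2, 0.49 for Mtpap and 0.25 for Lad1 with Lcn2, so these likenesses rested on those tumors, and 0.90 for Krt79 with Wfdc2. For Slpi they were Ing1 (r = 0.987), Gm4596 (r = 0.969) and Eef1g (r = 0.962), for Ltf Bcl2 (r = 0.982), Gk (r = 0.966) and Gm10863 (r = 0.965), for Fcgbp Rnf5 (r = 0.976), Stap2 (r = 0.967) and Vamp1 (r = 0.966), and for Saa3 Srsf10 (r = 0.964), Neil3 (r = 0.960) and Ift22 (r = 0.959). With 8 points and so many genes, high values of r are common, and they are given as a ranking only.

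Most other members of both families had a median under 1 TPM. The share of all genes under that level was not computed, so no comparison with other genes is made. Of 18 other genes with a WFDC domain or a place in the WFDC cluster, 3 had a median of 1 TPM or more: Wfdc17 with 51.6 TPM, Wfdc3 with 9.47 TPM and Wfdc21 with 3.85 TPM. Another 8 were listed at 0 in all tumors. Wap, the whey acidic protein itself, had a median of 0 and did not exceed 3.76 TPM. Of 18 other lipocalins, 4 had a median of 1 TPM or more, namely Apod (14.3 TPM), Orm1 (2.24 TPM), Rbp4 (1.85 TPM) and Orm2 (1.51 TPM), and 9 were at 0 throughout. The acute phase gene Orm1 reached 82.0 TPM in tumor 6 and 31.5 TPM in tumor 7, and was 0.950 TPM in tumor 8. Ptgds, a lipocalin that makes prostaglandin D, was at 858 TPM in tumor 9 and at most 1.69 TPM elsewhere.

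Of 23 other secreted defense genes, 13 had a median of 1 TPM or more. The highest were Lyz2, a lysozyme of macrophages and neutrophils (1185 TPM), Mfge8, a milk fat globule protein (1150 TPM), and ceruloplasmin, Cp (750 TPM). Hp, which encodes the hemoglobin-binding haptoglobin, had 240 TPM and Lbp, the lipopolysaccharide-binding protein, 91.1 TPM. Of the 21 that were above 0 in any tumor, all 21 had their lowest value, or shared it, in tumor 2. Tumor 9 had the highest value of 5. Among these were Pglyrp1, a peptidoglycan-binding protein, with 3014 TPM against at most 728 TPM elsewhere, and the antibacterial lectin Reg3g with 15.4 TPM against at most 5.33 TPM. Lbp, at 4.58 TPM in tumor 9, was low there as Lcn2, Ltf and Slpi were.

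Several proteins that bind or are bound by the members were also examined. Anxa2, a surface partner of Slpi, had a median of 1063 TPM and was lowest in tumor 2, at 75.2 TPM, followed by tumor 9, at 311 TPM. Transcripts of the proteases that Slpi inhibits were scarce, as is usual outside the bone marrow: Elane was listed at 0 in 10 tumors and Ctsg in 9. Mmp9, the matrix protease that Lcn2 binds, was at 827 TPM in tumor 8, where Lcn2 was 14.4 TPM, and between 0.560 and 27.8 TPM in the other 11. The Lcn2 receptor Slc22a17 had 11.6 TPM and Lrp2, another receptor, a median of 0. Of the receptors of the Saa proteins, Scarb1 had 68.5 TPM, Tlr2 42.8 TPM and Fpr2 10.9 TPM. Among 11 cytokines known to induce these genes, Il1b had a median of 70.6 TPM, Lif 28.0 TPM and Tnf 13.6 TPM. Il17a and Il22 were each listed at 0 in 11 tumors. Il1b was highest in tumor 8, at 204 TPM, and Il11, at 250 TPM in that tumor, did not exceed 2.87 TPM elsewhere.

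Because Lcn2, Ltf and Slpi are also known from neutrophils, the level of each gene was fitted against the median of 11 neutrophil genes over 8 mice with limma (tumor 2 left out, Benjamini-Hochberg adjustment over all genes tested). The question was whether the members were higher in mice with more neutrophil transcripts. The median of these genes was low, from 0.328 TPM in tumor 9 to 7.34 TPM in tumor 6. Their sum ran from 32.4 TPM in tumor 9 to 1038 TPM in tumor 8, of which Mmp9 gave 827 TPM. The defining gene Ly6g was listed at 0 in 5 tumors and did not exceed 2.31 TPM, and S100a8 and S100a9 had medians of 96.4 and 96.3 TPM. At an adjusted p under 0.05, limma called 0 of 8 members (Saa2 did not pass the filter of a mean of 1 TPM) and 0 of 16793 genes, a background of 0%. At an unadjusted p under 0.05 there were 2 of 8 members, against 2774 genes, a background of 16.5%. The slope, in log2 units of the gene per log2 unit of the list, was 2.07 ± 0.63 (SE) for Slpi (adjusted p = 0.20) and -2.88 ± 1.02 for Fcgbp (adjusted p = 0.23). It was 1.82 ± 1.12 for Lcn2 (adjusted p = 0.44), 1.69 ± 1.13 for Wfdc2 (adjusted p = 0.47), 1.05 ± 1.16 for Ltf (adjusted p = 0.68), 0.94 ± 0.44 for Saa3 (adjusted p = 0.33), 0.30 ± 1.24 for Wfdc18 (adjusted p = 0.93) and 0.06 ± 0.43 for Saa1 (adjusted p = 0.96). The median slope of the members was 0.99, against 0.08 over all genes. Without tumor 9, in which Slpi was lowest and Fcgbp highest, the slope was 1.23 for Slpi and -0.99 for Fcgbp (limma, adjusted p = 1 for both). With all 9 mice it was -0.95 for Fcgbp, 2.99 for Lcn2, 2.70 for Wfdc2, 2.07 for Wfdc18, 1.73 for Ltf and 1.56 for Saa3. Over all alternatives, limma's adjusted p ran from 0.11 to 1 for Slpi and from 0.12 to 1 for Fcgbp.

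The same fit was made with 11 genes of the inflammatory response (NF-kB, C/EBP and STAT3 pathway members and feedback genes), to ask whether the members followed other genes of the pathways known to induce them. The list was not uniform. In tumor 9, 8 of its 11 genes had their highest value, among them Nfkbia, the NF-kB inhibitor, with 904 TPM, and Relb with 299 TPM. Socs3, Cebpb and Cebpd, which belong to the STAT3 and C/EBP arms, were at 17.3, 16.3 and 8.19 TPM in tumor 9, below the 75.2, 71.2 and 23.6 TPM that were the lowest values in the 10 tumors other than 2 and 9. The median over the list was 139 TPM in tumor 9, 7.21 TPM in tumor 2 and 33.3 to 64.7 TPM in the others. At an adjusted p under 0.05 limma called 0 of 8 members and 0 of 16791 genes, a background of 0%. At an unadjusted p under 0.05 there were again 2 of 8 members, against 3103 genes, a background of 18.5%. The slope was -3.19 ± 0.79 (SE) for Slpi (adjusted p = 0.094) and 4.73 ± 1.19 for Fcgbp (adjusted p = 0.098). It was -1.32 ± 0.63 for Saa3 (adjusted p = 0.30), -1.40 ± 1.74 for Lcn2 (adjusted p = 0.71), -1.10 ± 1.74 for Wfdc2 (adjusted p = 0.78), -0.39 ± 1.70 for Ltf (adjusted p = 0.93), 0.89 ± 1.73 for Wfdc18 (adjusted p = 0.82) and 0.09 ± 0.61 for Saa1 (adjusted p = 0.95). The median slope of the members was -0.74, against -0.11 over all genes. The sign for the members depended on leaving out tumor 2. With all 9 mice the slopes of Wfdc2, Lcn2, Ltf and Saa3 were 1.75, 1.94, 1.24 and 0.88. The count of all genes called depended on which mice entered, with 1042 called by limma over all 9 mice, where the slope of Slpi was -0.34 (adjusted p = 0.77) and that of Fcgbp 2.81 (adjusted p = 0.038). Adjusted p ran from 0.044 to 1 for Slpi and from 0.037 to 1 for Fcgbp over the alternatives, and it was 1 for both without tumor 9.

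**Figure D5:**
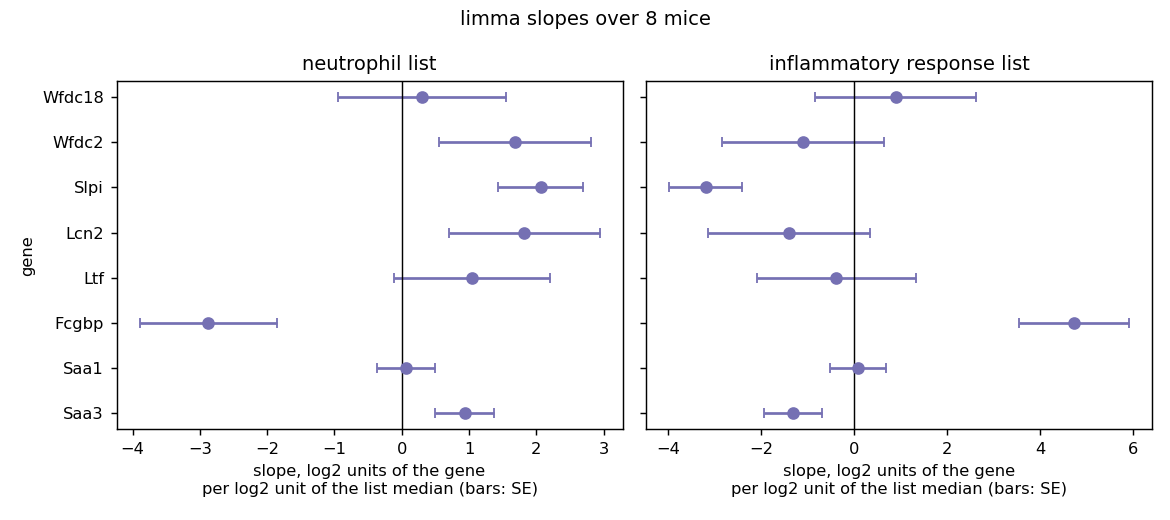
Slope of each gene (log2 units) per log2 unit of the median of the neutrophil list (left) and of the inflammatory response list (right), from limma over 8 mice. Points are slopes and bars are SE, and none of the 8 genes passed an adjusted p of 0.05 in either fit.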

How the data were processed

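RNA of 12 mammary tumors was sequenced by the authors from stranded mRNA libraries. After adapter trimming, HISAT2 alignment to GRCm38 transcripts and StringTie 2.1.6 gave the deposited TPM values (per the labels and the authors' methods). How transcripts were summed per gene is not given in the sources used here. From the TPM values of 47593 genes, whose totals lay between 999769 and 999908 per tumor, log2(TPM + 1) was computed and tumors of 1 mouse were averaged. Slopes were fitted with limma 3.58.1 (trended variance, two-sided, R 4.3.3) on genes with a mean of at least 1 TPM, with the genes of the list left out. The script was tested on simulated data. All gene lists and members were chosen with earlier results of these data known. Named are all members, the genes with the 3 highest and the lowest median of a list where a result used them, genes showing what a tumor holds, and the 3 genes most alike each member with a median of at least 10 TPM. Genes named for their level in tumor 6, 7, 8 or 9 were chosen after their values were seen. Coordinates are from GENCODE vM21 (GRCm38), a later release than the authors' annotation. Motifs were sought on both strands. Alternatives were another pseudocount, other filters, the list mean, all 9 mice, each tumor as a unit, TPM without mitochondrial genes, each mouse left out and, chosen after seeing the data, levels without tumors 2 and 8.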

Additional observations from a re-analysis of the deposited data

Results flagged for a closer look

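Of 12 values examined in the 9 mice, 1 stood apart by Dixon's criterion, which chance meets in about 1 of 20 groups. The median of the inflammatory response genes was 3.04 on the log2(TPM + 1) scale in the mouse of tumor 2, against 5.10 in the next lowest mouse, a gap of 0.50 of the whole range (critical value 0.493). In the same tumor the 9 epithelial genes had a median of 0.128 TPM, and all members except Slpi were below 3 TPM. The part of its cell content in this value was not tested.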

How the results depend on the processing

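In the neutrophil fit, limma's count of called genes went from 0 to 1 with the mean of the list genes, and from 0 to 2 when single mice were left out (2 without tumor 1). In the inflammatory response fit it went from 0 to 1156 with the list mean, 1042 with all 9 mice and 495 with each tumor as a unit, and from 0 to 693 when single mice were left out (693 without tumor 6, 1 without tumors 3 and 4, 2 without tumor 7). The cause was not tested. Directions turned for Wfdc18 (-0.34) and Saa1 (-0.14) against the mean of the neutrophil list, where the slopes of Wfdc2, Lcn2 and Ltf were 1.10, 1.00 and 0.58, and for Saa1 with a pseudocount of 0.1 (-0.16). With all 9 mice, inflammatory slopes turned to 1.75 for Wfdc2, 1.94 for Lcn2, 1.24 for Ltf and 0.88 for Saa3, while that of Wfdc18 moved from 0.89 to 2.79 (limma, adjusted p = 0.091), and with each tumor as a unit to -0.044 for Saa1. Leaving out single mice gave neutrophil slopes from -0.36 (without tumor 9) to 2.09 for Ltf, from -0.30 to 0.89 for Saa1, from 0.05 (without tumor 8) to 1.10 (without tumor 9) for Wfdc18 and from 0.51 (without tumor 9) to 1.20 for Saa3. It gave inflammatory slopes from -0.21 (without tumor 8) to 2.95 for Wfdc18, from -2.09 to 3.31 for Wfdc2, from -2.50 to 0.98 for Lcn2, from -1.51 to 6.34 for Ltf, from -1.51 to 0.71 for Saa1 and from -1.73 to -0.62 (without tumor 9) for Saa3, where the turns of Wfdc2, Lcn2 and Ltf came without tumor 9. Against the mean of the inflammatory list the slopes were -5.94 for Slpi, 8.98 for Fcgbp, -4.18 for Wfdc2, -4.24 for Lcn2, -3.86 for Ltf, -2.87 for Saa3, 0.45 for Saa1 and 0.20 for Wfdc18, with the directions of the list median. With each tumor as a unit, limma's adjusted p was 0.044 for Slpi (slope -3.06) and 0.037 for Fcgbp (slope 4.67). A pseudocount of 0.1 moved the mean level of Saa1 to -0.92 and of Saa2 to -2.70 on the log2 scale, since both are at 0 in many tumors. No paired analysis was possible because there is only 1 group of tumors. Without read numbers, no counting error can be given for low values such as those of Saa1 and Saa2.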

Other observations

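Some values outside the comparisons are given without explanation, and these genes were chosen after their values were seen. Wfdc13, another gene of the WFDC cluster, was listed at 12.3 TPM in tumor 2 and at 0 in the other 11 tumors. Lcn12, a lipocalin, was listed at 30.9 TPM in tumor 9 and at 0 in the others. Bpifb1, a secreted lipid-binding protein of airway and salivary epithelium, was at 30.3 TPM in tumor 5, 20.8 TPM in tumor 11 and 15.6 TPM in tumor 12, against at most 3.07 TPM in the other 9 tumors. Chil1, a secreted chitinase-like protein, reached 416 TPM in tumor 6 and 213 TPM in tumor 7, and Il1a reached 60.0 TPM in tumor 6 against at most 13.9 TPM elsewhere. Prtn3, a neutrophil protease gene, was at 68.8 TPM in tumor 11 and 77.9 TPM in tumor 12, which came from the same mouse as tumor 10 with 31.5 TPM. Elane, the neutrophil elastase gene, was listed at 0 in all 3 tumors of that mouse.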
